A study of Arabidopsis thaliana with 15 samples.

Results

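In Arabidopsis thaliana roots, 254 probe sets gave less signal in a triple grf1/grf2/grf3 mutant than in the wild type WS and more signal in a line labelled P35S:rGRF1 than in the wild type Col-0. They were taken from 13648 probe sets whose mean log2 signal over 15 arrays reached the 40th percentile, out of 22746 probe sets that are not array controls. The members were chosen by those 2 differences, each of at least 0.585 on the log2 scale (1.5-fold), and by leaving out 16 probe sets of plastid-encoded genes. Both differences are therefore given as a description, with no test. Of all probe sets at or above the percentile, 707 (5.18%) passed the first criterion, 590 (4.32%) passed the second, and 270 passed both before the plastid-encoded genes were left out. The level of the members in a further line, P35S:rGRF3, entered neither difference. Its arrays do count in the mean over 15 arrays, so a high level there helped a dim probe set to pass the filter.

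Growth-regulating factors (GRFs) are plant transcription factors that bind DNA through a WRC domain and act together with GIF co-activators, which they bind through a QLQ domain. The microRNA miR396 pairs with the transcripts of most GRF genes and limits their level, so a changed miR396 site gives a transcript that escapes this control. GRFs are known for promoting cell proliferation in leaves and for acting in the root meristem, where miR396 and the GRFs restrain each other.

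The 15 arrays hold root RNA of 2-week-old plants, grown on modified Knop's medium with 16-h light and 8-h dark at 23 °C, with 3 samples per genotype. Both parent ecotypes, Col-0 and WS, served as wild types, and the triple mutant is labelled with both. The transgenic roots, P35S:rGRF1 with the ecotype label col-0 and P35S:rGRF3 with the label ws, carry miR396-resistant forms of GRF1 and GRF3 under the CaMV 35S promoter, which drives expression in most cell types and not only where the GRF genes are active. The labels do not say how many independent transgenic lines were used or that replicates came from separate cultures, so p-values measure only the spread between these samples. GRF1, GRF2 and GRF3 themselves were not analysed here. In such bulk samples, fewer cells of a type and less RNA per cell cannot be told apart.

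Several features of the arrays bear on every result. Probe sets for RNA added at hybridization read 10.72 to 11.2 (log2 signal) on the WS and mutant arrays and 9.68 to 10.33 on all others, so a comparison of P35S:rGRF3 with WS crosses 2 sets of arrays and one with Col-0 does not. At the 120 probe sets whose wild-type means differed by at least 3 on the log2 scale, P35S:rGRF3 was nearer Col-0 at 112 and nearer WS at 8, which goes against its ecotype label. P35S:rGRF1 was nearer Col-0 at 116 of them and the mutant was nearer WS at 114. Array set and ecotype cannot be told apart here, and each comparison of P35S:rGRF3 with WS below describes the arrays so labelled. The probe set for 25S ribosomal RNA was also lowest in the mutant (9.77 to 10.81) and highest in P35S:rGRF1 (12.84 to 12.91). The other ranges were 11.42 to 11.69 (WS), 11.83 to 12.51 (Col-0) and 10.96 to 12.09 (P35S:rGRF3). Its part in the results was not tested. Among tissue markers the root-hair expansin EXPA7 passed the filter, as did the leaf-type genes RCA and LHCB4.1.

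Replicate 1 of Col-0 stood apart at the members. The median member, as log2 signal minus that probe set's mean over the 15 arrays, was -0.90 on Col-0 replicate 1, against 0.15 and 0.11 on the other Col-0 arrays. That is within the range of the triple mutant arrays, -0.92 to -0.81. The poly-A control probe sets of Col-0 replicate 1 read 8.01 (log2 signal), against 8.89 on both other Col-0 arrays. On the WS and mutant arrays they read 7.70 to 8.34, and their part in the results was not tested. Replicate 1 was the lowest of the Col-0 arrays at 228 members (89.76%), against 36.42% of all tested probe sets, and its median gap to the mean of the other Col-0 arrays was -0.94 for members and 0.02 for all tested. Because a low Col-0 mean helps a probe set to enter the list, the choice of members itself picks out what is low on that array. Without it, 146 of the 254 members still passed the rule (57.48%), and the median P35S:rGRF1 minus Col-0 difference of the 254 went from 0.95 to 0.64. Counts over all members against Col-0 are given below with and without this array. The P35S:rGRF3 minus Col-0 difference is given both ways for most members described. Calls against Col-0 counted within a family use all Col-0 arrays unless stated.

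**Figure D1:**
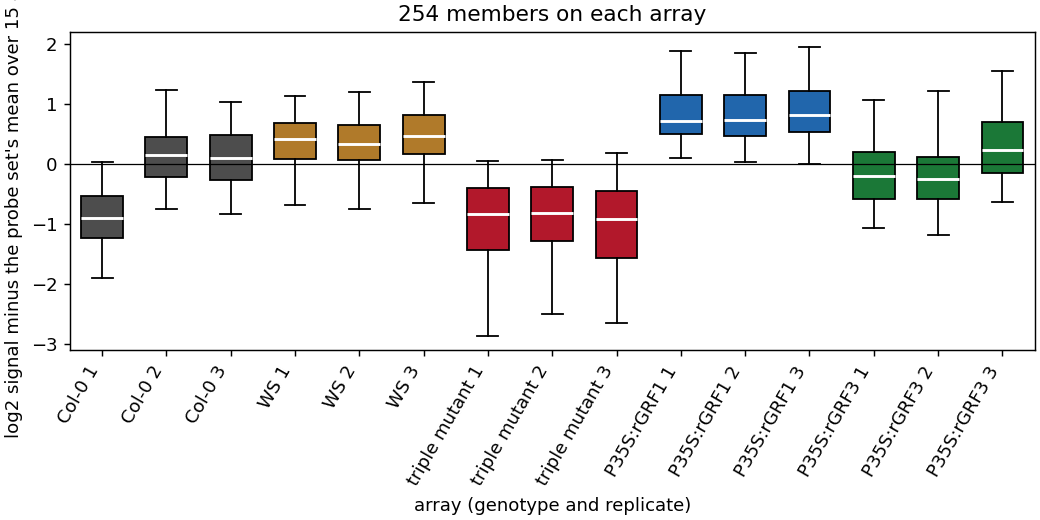
Each box covers the 254 members on 1 array, as log2 signal minus the probe set's mean over 15 arrays (line, median; box, quartiles; whiskers, 5th to 95th percentile). The P35S:rGRF1 boxes lie highest, and the mutant boxes lie lowest together with that of Col-0 replicate 1, whose median of -0.90 is among theirs. The choice of members fixes only that the mutant lies below WS and P35S:rGRF1 above Col-0.

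Over all members the mutant minus WS difference ran from -6.19 to -0.59 with a median of -1.12, and the P35S:rGRF1 minus Col-0 difference ran from 0.59 to 3.52 with a median of 0.95. All mutant arrays lay below all WS arrays at 247 members, against 17.6% of all tested probe sets. All P35S:rGRF1 arrays lay above all Col-0 arrays at 214, against 19.6%, and both held at 208, against 7.72%. The choice of members fixes this, and nothing is read from it. Members varied more within groups than other probe sets. The median within-group SD of members was 0.58 in Col-0, 0.28 in the mutant and 0.34 in P35S:rGRF3, against 0.16, 0.14 and 0.19 for all tested probe sets. The gap was small in WS (0.18 against 0.14) and P35S:rGRF1 (0.16 against 0.12). The Col-0 value includes replicate 1, where the choice of members picks out low values.

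Just inside the mutant criterion stood AT2G37660 (-0.59) and AT1G66430 (-0.60), and just outside it AT2G39360 and AT5G60030 (both -0.58). Just inside the P35S:rGRF1 criterion stood AT1G31950 (0.59) and AT3G29240 (0.60), and just outside it AT5G51110 and AT3G11450 (both 0.58). No gap in the values sets the members off from the probe sets beyond the thresholds.

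**Figure D2:**
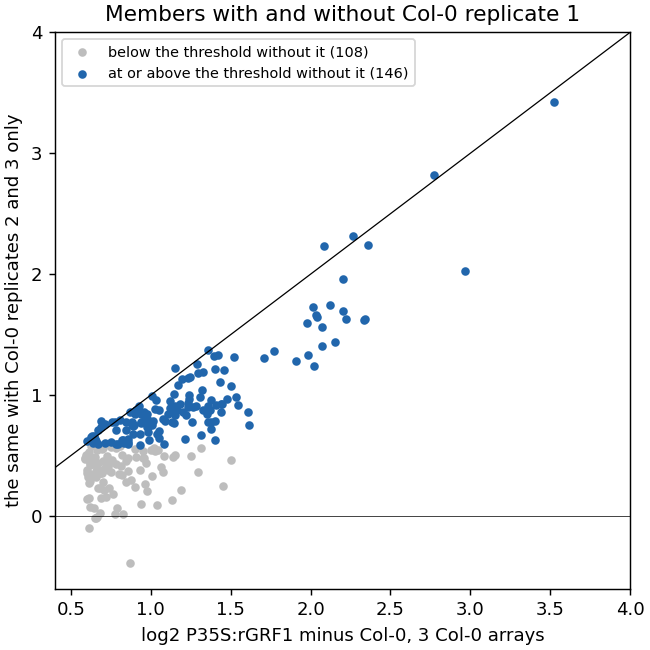
Each point is 1 member, with its log2 P35S:rGRF1 minus Col-0 difference from 3 Col-0 arrays (x axis) and from Col-0 replicates 2 and 3 (y axis), and the line marks equal values. Most points lie below the line, and 108 grey points fall under the 1.5-fold threshold once replicate 1 is left out.

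As to what kinds of genes these are, the annotation table gave 1 gene for 111 member probe sets (109 different genes), several for 3 and none for 140, which is 55.1% of the members. The unnamed members may include genes of any kind, plastid-encoded ones among them. A search for protein-type words in the symbols and synonyms placed 9 of the 111, 7 of them in enzyme classes and 2 with the proteases. These are 6.3% and 1.8% of the 111, against 2.15% and 0.83% of all tested probe sets with 1 gene. The other 102 matched no word, many of them carrying only a locus name. For 60 of the 109 genes the protein family is known in general, and these 60 were grouped after their values had been seen. The largest such groups were cell wall proteins (7 genes), defence-type proteins (7), photosynthesis and chlorophyll (5), proteases (5) and signalling proteins (5). Glucosinolate synthesis, carbohydrate metabolism and transporters other than those for metals followed with 4 genes each. Of those other transporters, 1 still passed the rule without Col-0 replicate 1. Metal transport, nitrate-response regulators, terpene synthases and transcription factors of other families had 3 each. Shares of these families among all tested genes were not counted, so their sizes do not set the members apart. Of a list of 22 genes for cell division and the root meristem only MCM7, a subunit of the replicative helicase, was named and tested, and it was no member, with differences of -0.36 (mutant minus WS) and 0.53 (P35S:rGRF1 minus Col-0).

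**Figure D3:**
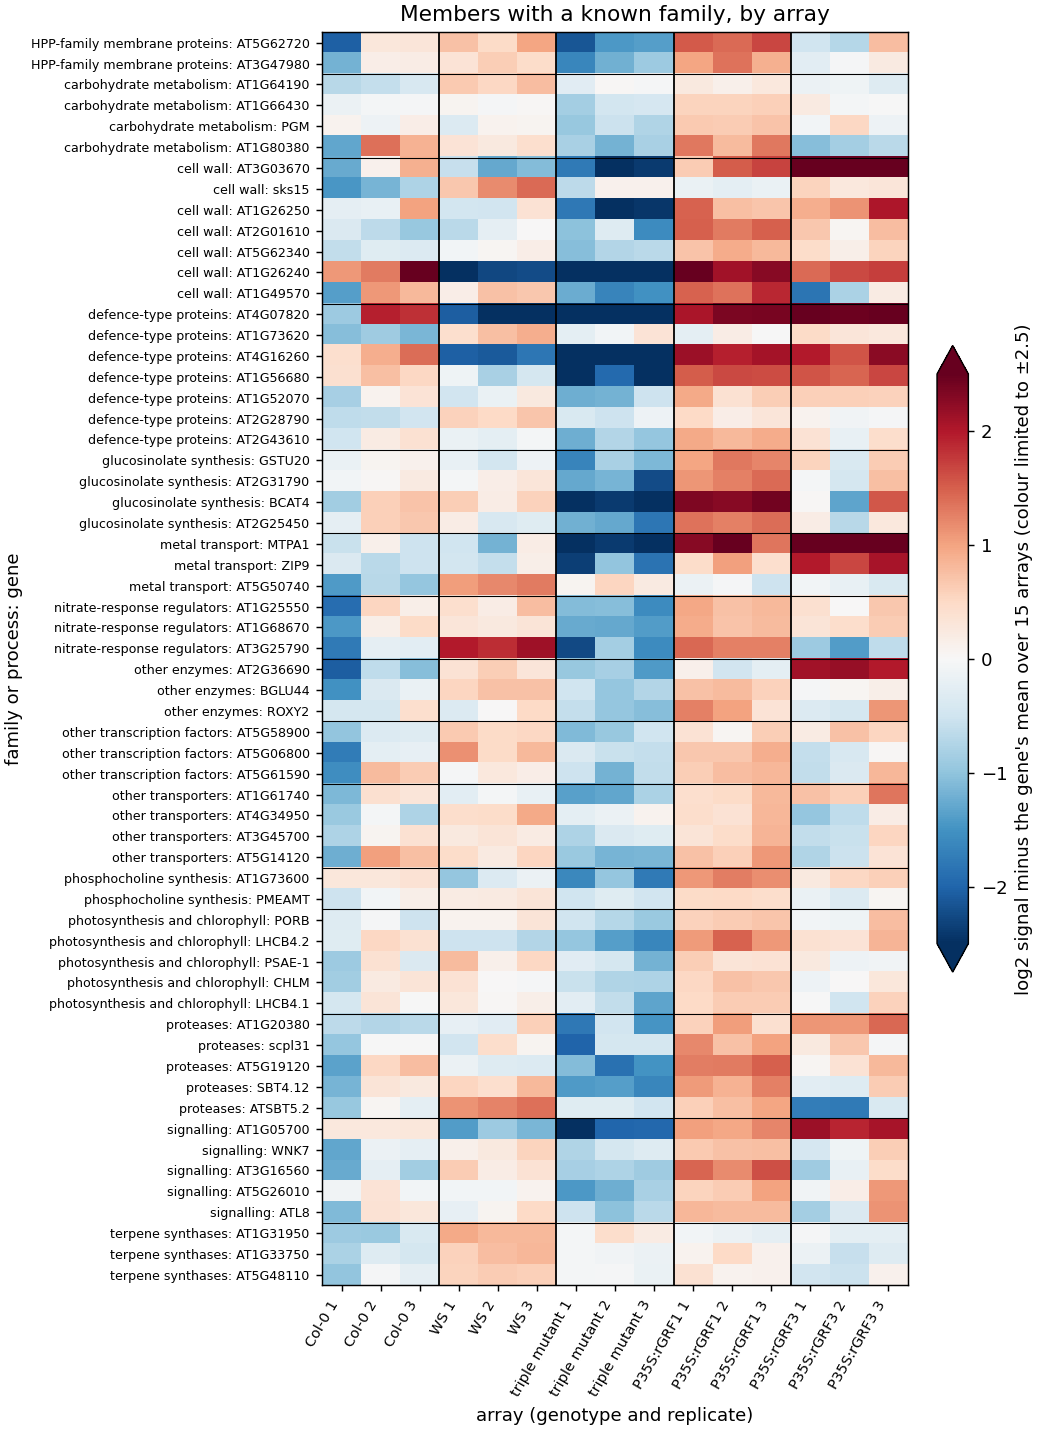
Rows are the 60 member genes of known family (1 probe set each), columns are the 15 arrays, and colour is log2 signal minus the gene's mean over the arrays, limited to ±2.5. Cell wall, defence-type and metal-transport rows hold the darkest red cells of P35S:rGRF3, and many rows are blue in Col-0 replicate 1.

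The nitrate-response regulators are AT3G25790, AT1G68670 and AT1G25550, known as HHO1, HHO2 and HHO3, which are Myb-family repressors that nitrate induces and that damp the nitrate and phosphate-starvation responses. These were the 3 genes of a 25-gene list for the primary nitrate response that the annotation names, so the list cannot say whether other nitrate genes moved. AT3G25790 read 9.91, 9.78 and 10.07 (log2 signal) in WS, 5.67, 7.08 and 6.36 in the mutant, 6.17, 7.72 and 7.67 in Col-0, 9.37, 9.21 and 9.21 in P35S:rGRF1, and 7.03, 6.54 and 7.29 in P35S:rGRF3. It was high in WS and P35S:rGRF1 and low in the other 3 genotypes, with P35S:rGRF3 overlapping both Col-0 and the mutant. Its P35S:rGRF3 minus Col-0 difference of -0.23 (SE 0.36) missed the threshold (adjusted p = 0.745), as did -0.74 without Col-0 replicate 1 (adjusted p = 0.103), while that to WS was -2.96 (SE 0.36, adjusted p = 5.33e-06).

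AT1G25550 read 7.67, 10.11 and 9.72 in Col-0 and 9.98, 9.59 and 10.25 in P35S:rGRF3, so 1 Col-0 array lay far below the rest. The P35S:rGRF3 minus Col-0 difference was 0.77 (SE 0.42, adjusted p = 0.261) with that array and 0.02 without it (adjusted p = 0.961). For AT1G68670 the same differences were 0.74 (adjusted p = 0.146) and 0.15 (adjusted p = 0.512). Of the 3 regulators, 1 (AT3G25790) still passed the rule without Col-0 replicate 1, where its P35S:rGRF1 minus Col-0 difference was 1.57 rather than 2.07.

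A pair of HPP-family membrane proteins, AT5G62720 and AT3G47980, were members. AT5G62720 read 10.01, 9.75 and 10.26 in WS, 7.14, 7.83 and 7.90 in the mutant, 7.22, 9.55 and 9.57 in Col-0, and 10.79, 10.69 and 10.93 in P35S:rGRF1. The Col-0 replicate 1 value lay among those of the mutant. Both genes passed the rule without that array, and neither was called in P35S:rGRF3, where AT5G62720 read 8.77, 8.56 and 10.05. Its P35S:rGRF3 minus Col-0 difference was 0.34 (adjusted p = 0.714) with Col-0 replicate 1 and -0.44 (adjusted p = 0.417) without it. AT3G47980 has 2 probe sets and both were members, with mutant minus WS differences of -1.72 and -1.12.

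Glucosinolates are sulfur-rich defence compounds of the cabbage family, and those of the aliphatic class are made from methionine after chain elongation. Of a 34-gene list for this pathway 5 genes were named, 4 were tested and 3 were members: BCAT4, the aminotransferase that opens chain elongation, AT2G31790 (UGT74C1), a glucosyltransferase of core synthesis, and GSTU20, a glutathione transferase. The fourth tested gene, UGT74B1, was no member, with a mutant minus WS difference of -0.12. AT2G25450, a dioxygenase that hydroxylates the glucosinolate side chain, was a member outside the list.

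AT2G31790 read 7.90, 8.11 and 8.25 in WS, 6.66, 6.77 and 5.70 in the mutant, 7.87, 7.98 and 8.16 in Col-0, and 9.04, 9.20 and 9.36 in P35S:rGRF1. The wild types overlapped, every mutant array lay below them and every P35S:rGRF1 array above them. GSTU20 gave the same order, with 7.43 to 8.27 in the mutant and 10.06 to 10.40 in P35S:rGRF1 around wild-type values of 8.62 to 9.19. In P35S:rGRF3 the 3 arrays of AT2G31790 read 7.89, 7.50 and 8.68, within or on either side of the wild-type range.

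None of these 4 glucosinolate genes was called in P35S:rGRF3 against either wild type by limma. Their differences to Col-0 ran from -0.44 (AT2G25450, adjusted p = 0.31) to 0.27 (GSTU20, adjusted p = 0.526). Without Col-0 replicate 1 they ran from -0.72 (AT2G25450, adjusted p = 0.0612) to 0.19 (GSTU20, adjusted p = 0.704), and none was called. BCAT4 differed by -0.06 (SE 0.54, adjusted p = 0.963), from a mean of 9.77 ± 1.44 (SD, n = 3) in P35S:rGRF3, and by -0.57 without that array (adjusted p = 0.544). All 4 passed the rule without Col-0 replicate 1, with P35S:rGRF1 minus Col-0 differences of 0.70 to 1.69.

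Metal transport had 3 members. ZIP9 encodes a transporter of the ZIP family, whose members take up zinc and other metals, and is known as a gene of the zinc-deficiency response. MTPA1 is a cation diffusion facilitator, of a family that moves zinc out of the cytosol, and AT5G50740 has a heavy-metal-associated domain. ZIP9 read 8.70, 8.40 and 8.55 in Col-0, 8.61, 8.47 and 9.22 in WS, 6.72, 8.09 and 7.23 in the mutant, 9.53, 10.10 and 9.49 in P35S:rGRF1 and 11.05, 10.74 and 11.13 in P35S:rGRF3. The P35S:rGRF3 arrays did not overlap those of any other genotype.

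ZIP9 rose by 2.42 in P35S:rGRF3 against Col-0 (SE 0.27, adjusted p = 2.23e-05) and by 2.5 without Col-0 replicate 1. The arrays labelled P35S:rGRF3 were 2.21 above WS (SE 0.27, adjusted p = 6.83e-06). MTPA1 also rose against Col-0, by 3.19 (SE 0.53, adjusted p = 0.000804), and by 3.07 without that array (adjusted p = 0.00252). AT5G50740 rose against Col-0 by 0.81 (SE 0.19, adjusted p = 0.00927, and 0.61 with adjusted p = 0.033 without that array) but was lower than WS by -1.39 (SE 0.19, adjusted p = 1.45e-05), since its WS arrays (9.06 to 9.31) lay above those of every other genotype. Its call against Col-0 was lost under 1 of 15 alternatives. A second, dimmer probe set of AT5G50740 was also a member, with differences of -1.02 (mutant minus WS) and 0.76 (P35S:rGRF1 minus Col-0). Of a 21-gene zinc list 4 genes were named and tested, and 3 rose against Col-0: ZIP9, MTPA1 and bZIP19, a zinc-sensing transcription factor that was no member (0.47, adjusted p = 0.0173). The fourth, ZIP6, gave -0.54 (adjusted p = 0.0518).

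Of the cell wall proteins, 5 of 7 rose in P35S:rGRF3 against Col-0, where 5.3% of all tested probe sets and 15.4% of members did. This family was grouped after its values were seen, and the Col-0 arrays also chose the members, so enrichment was not tested. The 5 were the class III peroxidase AT3G03670, the SKU5-like cell surface protein sks15, the extensin AT1G26250, and AT2G01610 and AT5G62340 of the invertase and pectin methylesterase inhibitor family. Class III peroxidases and extensins, structural glycoproteins, take part in cross-linking the wall. AT3G03670 read 5.68, 7.04 and 7.82 in Col-0, 6.35, 5.65 and 5.85 in WS, 5.16, 2.30 and 4.54 in the mutant, 7.56, 8.44 and 8.62 in P35S:rGRF1, and 9.50, 9.79 and 9.65 in P35S:rGRF3.

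The P35S:rGRF3 arrays of AT3G03670 lay above all others and the gene rose by 2.80 against Col-0 (SE 0.58, adjusted p = 0.00476), and by 2.22 (adjusted p = 0.0171) without Col-0 replicate 1. The arrays labelled P35S:rGRF3 were 3.7 above WS (SE 0.58, adjusted p = 6.88e-05). sks15 rose by 1.5 against Col-0 (SE 0.22, adjusted p = 0.000248) and by 1.34 without that array (adjusted p = 0.00101), yet was lower than WS by -0.72 (adjusted p = 0.0111). AT2G01610 and AT5G62340 rose by 1.15 (adjusted p = 0.0121) and 0.82 (adjusted p = 0.000855), and by 1.29 and 0.72 without it. The other peroxidase, AT1G49570, read 6.97, 7.99 and 8.99 in P35S:rGRF3 and 10.27, 10.15 and 10.67 in P35S:rGRF1. Its difference to Col-0 was -0.98 (adjusted p = 0.243) with Col-0 replicate 1 and -1.75 (adjusted p = 0.00569) without it.

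The neighbouring extensin genes AT1G26240 and AT1G26250 were both members, and their probe sets were not checked for cross-hybridization. AT1G26240 read 8.79 to 10.38 in Col-0 and 5.08, 5.42 and 5.47 in WS, with 5.05, 3.79 and 4.50 in the mutant and 9.13, 9.34 and 9.43 in P35S:rGRF3. The arrays labelled P35S:rGRF3 thus lay within the Col-0 range and 3.98 above WS (SE 0.35, adjusted p = 1.58e-07), while the difference to Col-0 was -0.09 (adjusted p = 0.905), and -0.39 without Col-0 replicate 1 (adjusted p = 0.525). AT1G26250 rose by 1.16 against Col-0 (SE 0.36, adjusted p = 0.0465), a call that was lost without Col-0 replicate 1 (0.94, adjusted p = 0.121) and under 10 of 16 alternatives in all.

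The defence-type proteins belong to families that pathogens or defence hormones often induce. Of these proteins 4 of 7 rose in P35S:rGRF3 against Col-0, where 5.3% of all tested probe sets and 15.4% of members did. They too were grouped after their values were seen, and enrichment was not tested. The 4 were AT4G07820 of the pathogenesis-related protein 1 family, the glucanase AT4G16260, and AT1G73620 and AT2G28790 of the thaumatin family. AT4G07820 read 8.49, 11.33 and 11.23 in Col-0, 7.34, 6.45 and 6.59 in WS, 6.12, 5.83 and 5.88 in the mutant, 11.43, 11.75 and 11.76 in P35S:rGRF1, and 11.92, 11.85 and 12.93 in P35S:rGRF3. Its level followed the array sets, with WS and mutant arrays all below the others.

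The rise of AT4G07820 against Col-0 was 1.89 (SE 0.52, adjusted p = 0.0276) with Col-0 replicate 1 and 0.95 (adjusted p = 0.033) without it, and the call was lost under 5 of 16 alternatives. The arrays labelled P35S:rGRF3 were 5.44 above WS (SE 0.52, adjusted p = 4.88e-07). AT4G16260 rose against Col-0 by 1.03 (SE 0.23, adjusted p = 0.00792), and by 0.79 (adjusted p = 0.0278) without Col-0 replicate 1. Its level too followed the array sets, with WS arrays at 9.04 to 9.34 and mutant arrays at 7.75 to 8.63, and all others at 11.57 or above. AT2G28790 rose against Col-0 by 0.58 (SE 0.12, adjusted p = 0.00426, and 0.55 with adjusted p = 0.0124 without that array) and was lower than WS by -0.59 (adjusted p = 0.00055). AT1G73620 rose by 1.38 against Col-0 (SE 0.16, adjusted p = 3.47e-05, and 1.36 with adjusted p = 0.000131 without it), from Col-0 values of 8.18, 8.36 and 8.11 to 9.72, 9.55 and 9.52, and the WS arrays, at 9.66, 10.01 and 10.16, overlapped these or lay above them. AT1G56680, a chitinase-family gene, read 8.57 to 8.77 in P35S:rGRF3 and 7.51 to 7.86 in Col-0 without overlap, but its difference of 1.01 (SE 0.40) did not pass (adjusted p = 0.12, and 0.195 without Col-0 replicate 1).

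The photosynthesis and chlorophyll members were LHCB4.1 and LHCB4.2, antenna proteins of photosystem II, the photosystem I subunit PSAE-1, and the chlorophyll-synthesis enzymes PORB and CHLM. Without Col-0 replicate 1, 2 of the 5 still passed the rule, and their median P35S:rGRF1 minus Col-0 difference over all 5 went from 0.75 to 0.43. On the arrays labelled P35S:rGRF3, 1 of the 5 was called higher than WS, as were 19.4% of all tested probe sets. None of the 5 was called against Col-0 in P35S:rGRF3, with differences of 0.06 (LHCB4.1, adjusted p = 0.916) to 0.49 (PORB, adjusted p = 0.13), nor was any without Col-0 replicate 1, with differences of -0.22 (CHLM, adjusted p = 0.378) to 0.48 (PORB, adjusted p = 0.187). LHCB4.2 read 8.74, 9.15 and 8.76 in P35S:rGRF1, 6.71, 6.30 and 6.05 in the mutant, 7.37, 8.19 and 8.07 in Col-0 and 7.16, 7.17 and 6.95 in WS. The mutant lay below and P35S:rGRF1 above both wild types. Of a 10-gene list of shoot markers 2 were named, and the other, RCA, the Rubisco activase, was no member, with differences of -0.15 (mutant minus WS) and 0.10 (P35S:rGRF1 minus Col-0). The median of 49 plastid-encoded probe sets, each centred on its own mean, read 0.16 to 0.42 on the P35S:rGRF1 arrays and -0.31 to -0.03 on those of Col-0. This median read 0.26 to 0.60 in WS, -0.36 to 0.03 in the mutant and -0.45 to -0.43 in P35S:rGRF3. Its part in the values of the 5 genes was not tested.

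Of the 5 protease members, AT1G20380 of the prolyl oligopeptidase family rose in P35S:rGRF3, by 1.90 against Col-0 (SE 0.28, adjusted p = 0.000249) and by 1.91 without Col-0 replicate 1 (adjusted p = 0.000655). Its 3 Col-0 arrays were nearly equal at 9.16, 9.08 and 9.14, and the P35S:rGRF3 arrays read 10.92, 10.90 and 11.25. The subtilases SBT4.12 and ATSBT5.2, secreted proteases, differed from each other. ATSBT5.2 read 7.44, 7.40 and 8.79 in P35S:rGRF3 and 8.22, 9.23 and 8.94 in Col-0, a difference of -0.92 (SE 0.29, adjusted p = 0.0543) that became -1.20 (adjusted p = 0.0119) without Col-0 replicate 1. For SBT4.12 the difference was 0.21 (adjusted p = 0.727), and -0.27 (adjusted p = 0.467) without it.

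Of the signalling members, the leucine-rich repeat kinase AT1G05700 was the clearest in P35S:rGRF3. It read 8.02, 8.03 and 8.04 in Col-0, 6.37, 6.85 and 6.62 in WS, 5.02, 5.79 and 5.79 in the mutant, 8.79, 8.73 and 8.98 in P35S:rGRF1 and 9.91, 9.67 and 9.83 in P35S:rGRF3. No 2 genotypes overlapped, and the rise over Col-0 was 1.77 (SE 0.19, adjusted p = 1.17e-05) with all arrays and 1.76 (adjusted p = 4.93e-05) without Col-0 replicate 1. The type 2C protein phosphatase AT3G16560 had one of the larger P35S:rGRF1 minus Col-0 differences, 2.2 with and 1.96 without that array. In P35S:rGRF3 it gave 0.58 against Col-0 (SE 0.28, adjusted p = 0.197), and 0.35 (adjusted p = 0.473) without it. WNK7, a kinase, AT5G26010, another type 2C phosphatase, and ATL8, a RING-type ubiquitin ligase, were not called against Col-0 with or without it.

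Of 3 terpene synthases 1, AT1G31950, rose in P35S:rGRF3 against Col-0 (0.57, SE 0.15, adjusted p = 0.0221), and all 3 were lower than in WS, by -0.89 to -1.08, a call that 33% of all tested probe sets and 44.9% of members shared. Without Col-0 replicate 1 AT1G31950 gave 0.49 (adjusted p = 0.0644), and its call was lost under 4 of 16 alternatives. Of the 3 synthases, 1 still passed the rule without that array, and their median P35S:rGRF1 minus Col-0 difference went from 0.61 to 0.51. Of the remaining transcription factors the Myb-type AT5G58900 rose against Col-0 (1.04, SE 0.20, adjusted p = 0.00299, and 0.83 with adjusted p = 0.0104 without that array), from 7.76, 8.40 and 8.42 to 8.95, 9.48 and 9.28. AT5G61590, an ERF-type repressor of wax synthesis, did not pass the rule without Col-0 replicate 1. Its other Col-0 arrays read 11.36 and 11.20 and those of P35S:rGRF1 11.17, 11.33 and 11.39, and the difference was 0.78 with replicate 1 and 0.02 without it.

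Carbohydrate metabolism held AT1G64190, a 6-phosphogluconate dehydrogenase, PGM, a phosphoglycerate mutase, AT1G66430, a fructokinase-type sugar kinase, and AT1G80380, glycerate kinase, the last enzyme of photorespiration. AT1G80380 read 8.82, 11.50 and 10.98 in Col-0 and 9.05, 9.27 and 9.44 in P35S:rGRF3. Its difference of -1.18 (SE 0.43, adjusted p = 0.0936) was not called with Col-0 replicate 1 and was -1.98 (adjusted p = 3.79e-06) without it. AT1G64190 rose by 0.38 (SE 0.11, adjusted p = 0.0291), and this call was lost without that array (0.31, adjusted p = 0.0862) and under 8 of 16 alternatives in all.

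The 2-oxoglutarate-dependent dioxygenase AT2G36690 had the largest P35S:rGRF3 minus Col-0 difference of all 254 members. It read 6.12, 7.55 and 7.12 in Col-0, 8.55, 8.79 and 8.48 in WS, 7.23, 7.35 and 6.77 in the mutant, 8.31, 7.71 and 7.93 in P35S:rGRF1 and 10.29, 10.36 and 10.16 in P35S:rGRF3. The P35S:rGRF3 arrays lay above all others, and P35S:rGRF1 lay between the wild types. The rise was 3.34 against Col-0 (SE 0.27, adjusted p = 9.14e-07) and 2.93 without Col-0 replicate 1 (adjusted p = 1.3e-07). The arrays labelled P35S:rGRF3 were 1.66 above WS (SE 0.27, adjusted p = 8.51e-05).

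**Figure D4:**
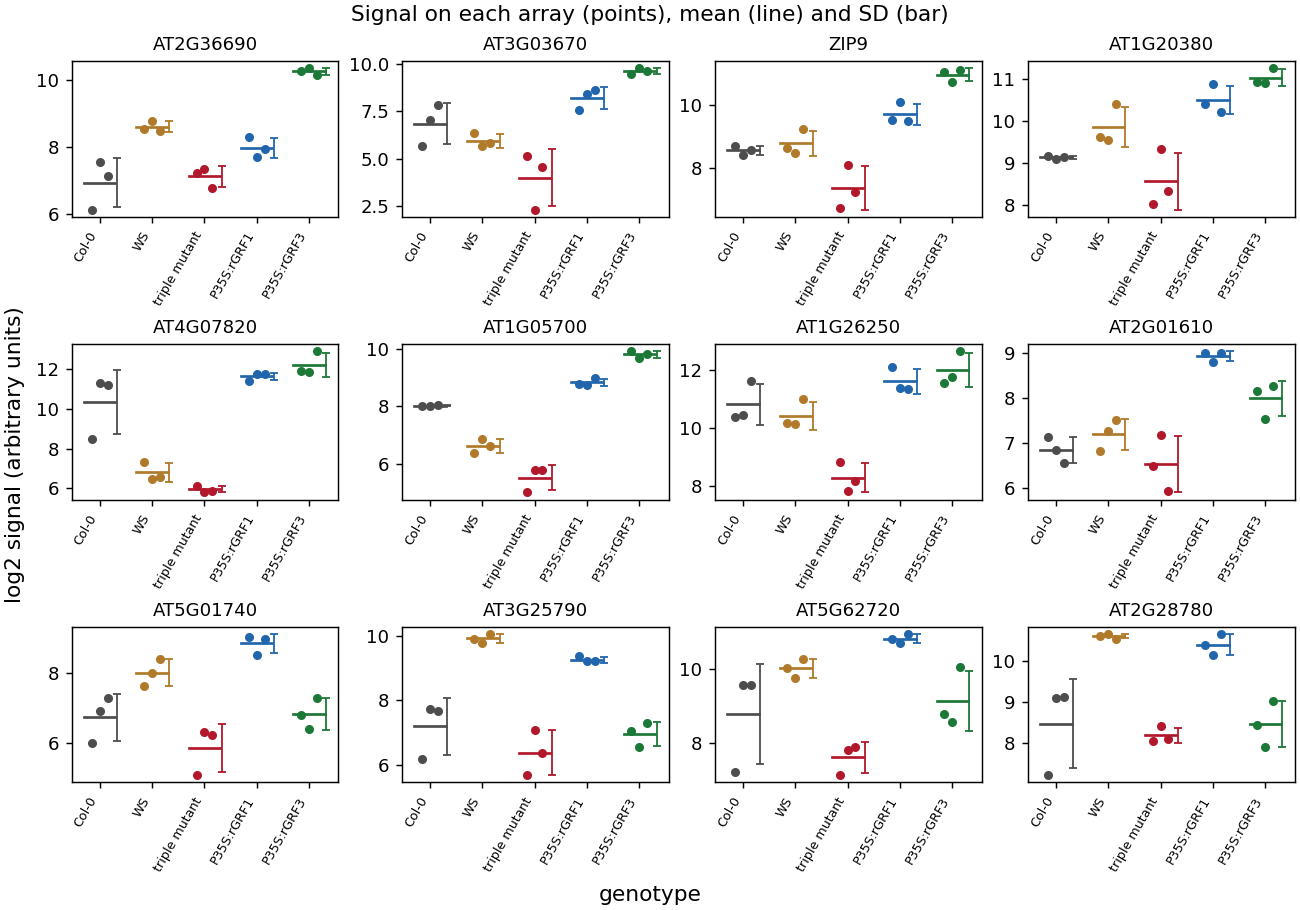
Log2 signal on each array (points), group mean (line) and SD (bar, n = 3) of 8 members higher in P35S:rGRF3 than in both wild types, from AT2G36690 to AT2G01610, and of 4 members chosen for a large change in both contrasts of the rule, from AT5G01740 to AT2G28780. The first 8 are high in P35S:rGRF3, and in the last 4 P35S:rGRF3 lies near Col-0 and below P35S:rGRF1.

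Of the 10 named members with the largest smaller change of the 2 contrasts, 1 (MTPA1) was called higher than Col-0. The others gave P35S:rGRF3 minus Col-0 differences of -0.23 (AT3G25790) to 0.34 (AT5G62720), and none was called. Without Col-0 replicate 1 all 9 were below 0, from -1.05 (AT5G59080, adjusted p = 0.011, called lower) to -0.28 (AT5G01740, adjusted p = 0.649), with AT1G49500 at -0.97 (adjusted p = 0.131) and AT3G46880 at -0.91 (adjusted p = 0.081). AT5G01740, of which no product is given here, read 9.04, 8.53 and 8.98 in P35S:rGRF1 and 6.78, 6.38 and 7.29 in P35S:rGRF3, against 5.98, 6.92 and 7.29 in Col-0. AT1G49500 read 11.56, 10.99 and 11.05 in WS, 7.73, 7.77 and 7.73 in the mutant and 12.08, 12.12 and 12.21 in P35S:rGRF1, with 9.94, 9.56 and 11.73 in P35S:rGRF3. The P35S:rGRF3 arrays of this gene lay between the mutant and P35S:rGRF1 and spread over more than 2 log2 units. The unnamed probe set 266797_at had the largest changes of all members, -6.19 in the mutant and 3.52 in P35S:rGRF1, where its arrays read 11.50, 11.44 and 11.66, and its P35S:rGRF3 arrays, at 8.18, 8.11 and 8.51, lay near the Col-0 arrays at 7.81, 8.12 and 8.10. Other unnamed members with large changes were called higher than Col-0 in P35S:rGRF3, among them 259632_at, at 2.57 (adjusted p = 3e-05), which had -1.83 for the mutant and 2.27 for P35S:rGRF1.

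Over all 254 members, limma called 39 higher (15.4%) and 3 lower (1.18%) in P35S:rGRF3 than in Col-0, against 5.3% and 6.61% of all tested probe sets. The comparison shares its Col-0 arrays with the rule, and a member was chosen in part for a low Col-0 mean, which favours a higher P35S:rGRF3 value. The median difference was 0.13 for members and -0.02 for all tested. Without Col-0 replicate 1, 29 members (11.4%) were higher and 44 (17.3%) lower, against 5.8% and 7.34% of all tested, and the median member was at -0.17. The 29 were all among the 39, and the 3 lower calls were among the 44. Over the 254, the balance of higher and lower members in P35S:rGRF3 therefore turned on 1 array. Among the 146 members that still passed the rule without that array, 28 were higher and 12 lower in the fit without it. Of all tested probe sets 5.8% were higher and 7.34% lower in that fit. The Col-0 arrays of that fit also chose the 146, which favours higher calls.

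Of the 39 higher members 23 have 1 gene and 16 none. Beside those above, the rises included AT1G61740 of the sulfite exporter family (1.03, adjusted p = 0.0372), a call lost without Col-0 replicate 1 (0.53, adjusted p = 0.094) and under 8 of 16 alternatives in all. The 3 lower ones were AT2G38600 and 2 unnamed probe sets, 264923_s_at and 264052_at. AT2G38600 read 6.90, 8.11 and 8.09 in Col-0 and 7.11, 6.66 and 6.52 in P35S:rGRF3, a difference of -0.93 (SE 0.29, adjusted p = 0.0457). It was -1.33 (adjusted p = 0.00139) without Col-0 replicate 1, and the call was lost under 10 of 15 alternatives.

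Against WS, which crosses the array sets and shares arrays with the rule, 34 members (13.4%) were higher and 114 (44.9%) lower on the arrays labelled P35S:rGRF3. Of all tested probe sets 19.4% were higher and 33% lower. The median difference was -0.58 for members and -0.13 for all tested, and members were chosen in part for a high WS mean. Of the 39 members higher than Col-0, 18 were also higher than WS, 12 were lower than WS and 9 were not called against it. WS lay above Col-0 at 207 members. The mean of P35S:rGRF3 lay between the wild-type means at 109 members, above both at 61 and below both at 84, and it was above that of P35S:rGRF1 at 23 and above that of the mutant at 209.

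The 18 members (7.09%) higher on the arrays labelled P35S:rGRF3 than in both wild types stand against 2.56% of all tested probe sets, and 15 of them were also so without Col-0 replicate 1. The 13 with 1 gene were AT2G36690, MTPA1, AT3G03670, ZIP9, AT1G20380, AT4G07820, AT1G05700, AT1G26250, AT2G01610, AT1G61740, AT4G16260, AT1G19530 and AT5G62340. The 3 lost without that array were AT1G26250, AT1G19530 and AT1G61740. By family, a grouping made after the values were seen, the 13 hold 4 of the 7 cell wall genes and 2 of the 7 defence-type genes. They also hold 2 of the 3 metal-transport genes, and no glucosinolate, nitrate-regulator or photosynthesis gene. AT3G03670 and MTPA1 are among the 13, and their P35S:rGRF3 arrays helped them to pass the filter, so their rise is not independent of the choice. The unnamed probe set 259632_at was also among the 18, at 10.09, 9.91 and 10.16 in P35S:rGRF3, 9.93, 10.09 and 9.23 in P35S:rGRF1, 7.58, 7.60 and 7.28 in Col-0 and 8.97, 8.27 and 9.47 in WS.

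**Figure D5:**
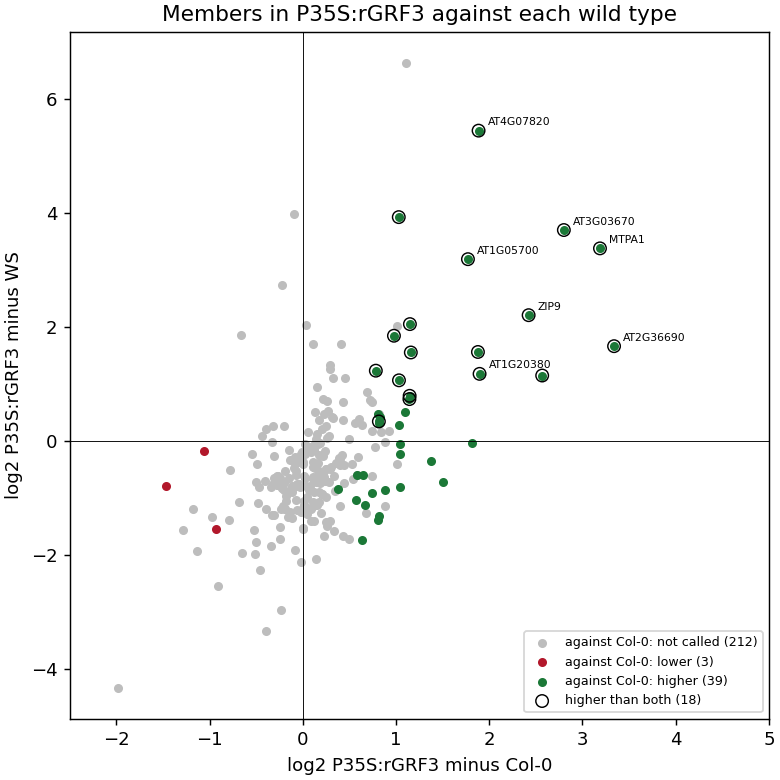
Each point is 1 of the 254 members, with log2 P35S:rGRF3 minus Col-0 on the x axis and minus WS on the y axis, coloured by the call against Col-0 (39 higher, 3 lower, 212 not called), and circles mark the 18 higher than both. Most grey points lie near 0 on the x axis and below 0 on the y axis, and the labelled genes with rises over 1.5 lie at the upper right.

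In the gene order of the reference, 108 member genes could be placed, and 2 pairs of them were adjacent among the tested genes. One is the extensin pair AT1G26240 and AT1G26250, and the other is AT2G28780, of which no product is given here, with the thaumatin-family gene AT2G28790. AT2G28780 gave -0.02 (adjusted p = 0.986) in P35S:rGRF3 against Col-0, and -0.64 (adjusted p = 0.0805) without Col-0 replicate 1.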

How the data were processed

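The 15 arrays, 3 for each of 5 genotypes, carry 22810 probe sets. What the authors deposited is linear intensity, computed with MAS5 per the submitters' processing notes (version not given in the sources used here). They were taken to log2 here, with no offset and no further normalization, from the authors' deposited values. After leaving out 64 control probe sets, 13648 with a mean log2 signal of at least 6.84 (a signal of 115) were tested.

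The model had a mean for each genotype and used all 15 arrays (limma 3.58.1, R 4.3.3, eBayes with a mean-variance trend). Tests were two-sided, and p-values were adjusted by Benjamini-Hochberg over the 13648. A call is an adjusted p under 0.05. Every adjusted p given is from limma. Values ± are SD, and SE is the standard error of the fit. The number of arrays limits the precision, and no detection calls were used. The scripts were tested on simulated data.

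The members and lists were chosen with earlier results of these data known. Genes named were the 10 with the largest smaller change of the 2 contrasts, the 8 largest rises and falls called in P35S:rGRF3, list members, those nearest each threshold and the brightest of each kind. Genes of known family were added after their values were seen, and so was the check of the ecotype labels. The TAIR10.1 gene table, used for names and gene order, matched 110 of 111 named members. It holds no product text, so kinds were sought in symbols and synonyms only. A planned look at promoters was not run, as no sequences were used here. BCAT4 and MTPA1 are given only in brief. Lists for phosphate starvation (13 entries, none named) and root tissue (9 entries, 1 named, EXPA7, at 0.06 in P35S:rGRF3 minus Col-0, adjusted p = 0.873) held no member. Alternatives are in the closing section.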

Additional observations from a re-analysis of the deposited data

How the results depend on the processing

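The number of members, 254, was 85 with a threshold of 1 in both contrasts and 694 with no filter on dim probe sets. It was 238 with an offset of 16, 251 after quantile normalization and 187 with group medians (163 shared). Leaving out each array in turn gave 149 (without Col-0 replicate 1) to 337 (without Col-0 replicate 3). For P35S:rGRF3 against Col-0, the 39 higher members were 25 and the 3 lower ones 0 when only the arrays of the 2 groups were fitted. Array weights gave 24 lower ones. Leaving out each array in turn gave 29 to 41 higher and 0 to 44 lower. The lower count was 44 without Col-0 replicate 1, 7 without P35S:rGRF3 replicate 3, 1 without P35S:rGRF3 replicate 1, and 0 without Col-0 replicate 2, Col-0 replicate 3 or P35S:rGRF3 replicate 2. Against WS the higher count, 34, was 20 with a filter at the 60th percentile, where fewer members were tested, and 27 to 35 without each array, with 85 to 121 lower. Members higher than both wild types numbered 18, or 11 with that filter and 10 to 20 without each array (10 without P35S:rGRF3 replicate 3, whose poly-A controls read lowest, at 6.96). Where no reason is given the cause was not tested. Deviations of same-numbered P35S:rGRF3 and Col-0 arrays from their group means had correlations of -0.175 to 0.251. Those of differently numbered arrays were -0.28 to 0.185. With so few arrays per group this cannot show whether equal numbers share more than a label. With the replicate block, P35S:rGRF3 had 42 members higher and 4 lower than Col-0, and 34 higher and 115 lower than WS. The poly-A signal as a covariate, chosen after seeing the data, gave 35 and 4 against Col-0. Of 1081 values for 69 named genes under these alternatives none changed direction among those called, 47 lost the call and 20 gained one. ZIP9, AT2G36690, AT3G03670, AT1G05700, AT1G20380 and AT1G73620 were called under every alternative run.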
